A study of Mus musculus with 12 samples.

Results

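The WNT genes of SVR tumors were examined: the secreted ligands, their receptors, and the secreted and membrane proteins that tune the signal. A gene was taken as a member when its name began with Wnt, Fzd, Sfrp, Dkk or Rspo followed by a digit, or was Frzb, Wif1, Lgr4, Lgr5, Lgr6, Lrp5, Lrp6, Znrf3, Rnf43, Notum, Axin2, Tcf7, Lef1, Nkd1, Nkd2 or Porcn. This gave 58 of the 54232 genes in the count table, of which 54 had at least 1 count in some tumor. A filter on low counts kept 33 of them for testing, among 12897 genes tested in all.

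SVR is a mouse endothelial line, derived from islet endothelium and carrying SV40 large T antigen and activated Hras, that forms angiosarcoma under the skin. The cells were grown as flank xenografts in athymic nude mice of 8-12 weeks (the strain label reads C57BL/6), so tumor cells, stroma and skin were all mouse RNA in a whole tumor lysate. By daily oral gavage, 3 tumors received vehicle (control), 3 received trametinib at 1 mg/kg, an inhibitor of the kinase MEK, 3 received cediranib at 3 mg/kg, an inhibitor of the VEGF receptors, and 3 received both drugs (combination). RNA was captured with exome probes before sequencing. In an experiment of the study mice were treated until the tumor ulcerated or passed a size limit. In another, all tumors were harvested at the same time. The sources do not say which gave these tumors, so time on treatment may have differed between groups.

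WNT proteins are lipid-modified ligands that bind a Frizzled receptor together with the co-receptor LRP5 or LRP6. In the canonical branch this stabilizes β-catenin, which acts with TCF/LEF factors on target genes such as Axin2. The ligases ZNRF3 and RNF43 remove Frizzled from the membrane, and R-spondins, bound by LGR4, LGR5 or LGR6, block those ligases and so raise the response. SFRPs, FRZB, WIF1, DKKs and NOTUM are secreted inhibitors. In skin the pathway is known for its part in hair follicles, and in endothelium for its part in vessel growth and barrier formation.

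Promoter sequence from RefSeq (GRCm38.p6) was found for 37 of the 58 genes, 17 of them tested. The 250 bases before the start are shown for Lgr4 and Wnt10b, which were higher in all 6 tumors that received trametinib than in the other 6 tumors, and for Wnt3, which had no count in the tumors on trametinib alone. The Lgr4 window is chr2:109917397-109917646 on the plus strand, the Wnt10b window chr15:98778151-98778400 on the minus strand and the Wnt3 window chr11:103773925-103774174 on the plus strand. Capitals mark the GC box GGGCGG.
Lgr4: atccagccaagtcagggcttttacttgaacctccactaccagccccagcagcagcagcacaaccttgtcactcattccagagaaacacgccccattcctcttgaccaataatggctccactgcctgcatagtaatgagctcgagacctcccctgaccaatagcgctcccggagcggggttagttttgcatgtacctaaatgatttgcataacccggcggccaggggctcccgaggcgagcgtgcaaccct
Wnt10b: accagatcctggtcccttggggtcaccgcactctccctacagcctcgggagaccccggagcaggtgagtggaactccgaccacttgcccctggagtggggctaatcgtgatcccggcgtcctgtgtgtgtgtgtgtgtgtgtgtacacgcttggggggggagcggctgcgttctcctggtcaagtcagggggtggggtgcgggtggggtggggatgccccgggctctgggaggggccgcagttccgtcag
Wnt3: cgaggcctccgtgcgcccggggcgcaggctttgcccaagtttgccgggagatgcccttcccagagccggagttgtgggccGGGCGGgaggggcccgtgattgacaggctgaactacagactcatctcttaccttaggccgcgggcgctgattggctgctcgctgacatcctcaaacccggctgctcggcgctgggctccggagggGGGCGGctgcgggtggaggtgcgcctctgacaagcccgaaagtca
The RefSeq start of Wnt3 lies inside the deposited gene, so its window includes the first 25 bases of that gene. The Wnt3 window held 2 GC boxes, and those of Lgr4 and Wnt10b held none. On either strand, 12 of the 17 tested WNT genes with a window (70.6%) held a GC box, compared to 32.7% of all 32851 windows. The TCF/LEF words CTTTGAA and CTTTGAT occurred in 1 of the 17 windows (5.88%), that of Wnt11, and in 7.48% of all. The ETS word CCGGAAG occurred in 0 of the 17 and in 6.91% of all, and the TATA box TATAAA in 4 of the 17 (23.5%) and in 12.4% of all. A match describes letters in these windows and is not evidence of binding.

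Levels are given as TMM-scaled CPM, the count of a gene relative to its library total. A gene at 0 counts could have reached 3 counts by counting error alone, which was 0.251 to 0.349 CPM. Library totals were 9478865 to 11666094 counts, and the WNT genes held 0.0682% to 0.117% of them. Compared per kb of exon, the most abundant WNT genes of the control tumors were the co-receptors Lrp5 (19.6 CPM per kb) and Lrp6 (18.7 CPM per kb), with the inhibitor Sfrp2 at 17.5 CPM per kb. The receptors Fzd1 and Fzd2 followed at 8.05 and 7.58 CPM per kb, and the ligand Wnt7b at 5.46 CPM per kb was the highest ligand. The place of Sfrp2 rests largely on control replicate 3, at 85.0 CPM against 8.60 and 19.6 CPM in the other 2 controls. After trametinib the order per kb was Fzd2 (27.9 CPM per kb), Lrp6 (22.6 CPM per kb), Fzd1 (20.5 CPM per kb), Lrp5 (18.8 CPM per kb) and Lgr4 (14.7 CPM per kb). Neighbours in these orders were not tested, and capture probes can set levels apart between genes. Wnt7a, Wnt9b and Dkk1 had no count in any of the 12 tumors, nor did Rspo4os, an antisense RNA that the naming rule also takes in.

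**Figure D1:**
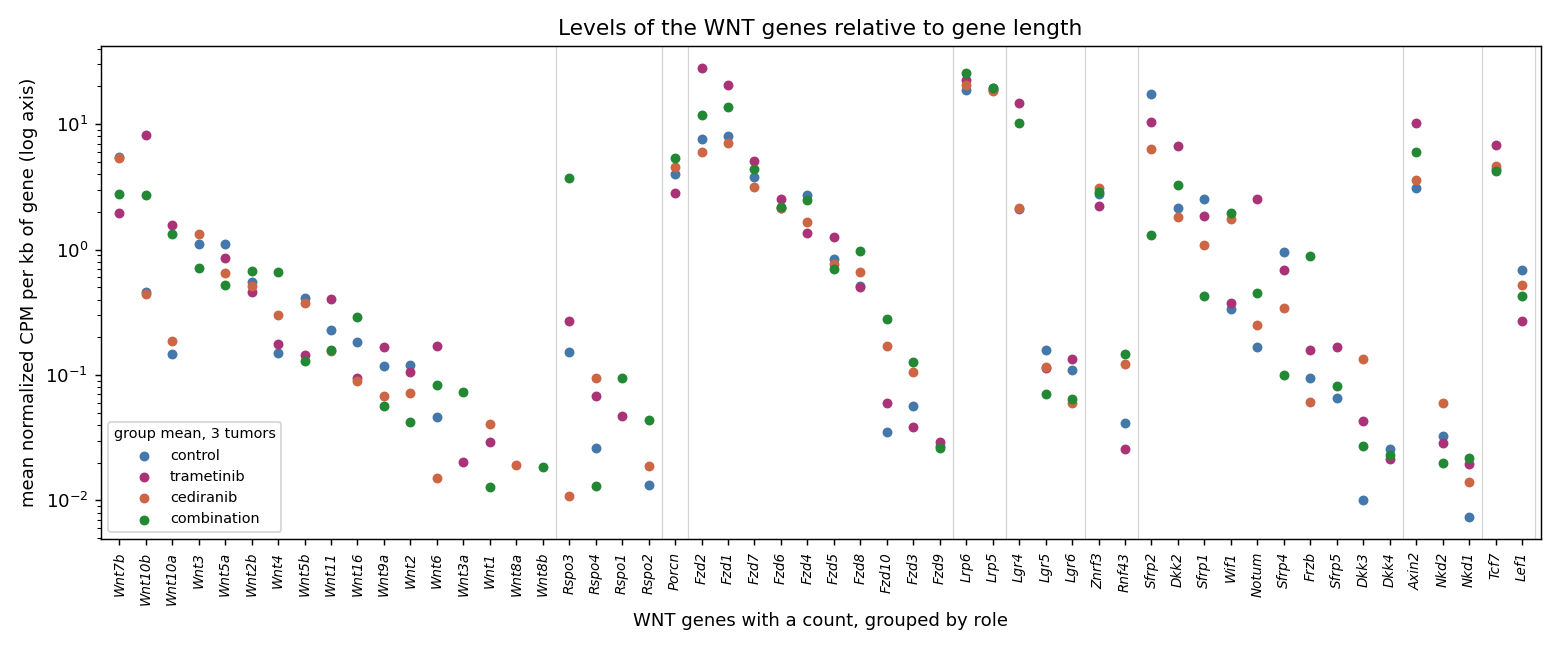
Mean normalized CPM per kb of exon on a log axis for the 54 WNT genes with a count, grouped by role, with 1 point per treatment (mean of 3 tumors; means of 0 are not drawn). Lrp5 and Lrp6 lie near 20 in every group, while Wnt10b, Wnt10a, Rspo3, Lgr4 and Notum spread widely between groups.

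Before the results, the make-up of the tumors was checked with marker lists. Endothelial markers, summed over 8 genes, ran from 202 to 417 CPM in control tumors and from 120 to 316 CPM with cediranib. They ran from 47.5 to 107 CPM with trametinib and from 32.3 to 80.7 CPM with the combination. The 22 epidermal markers summed to 79.7 to 156 CPM in control, 89.4 to 99.9 CPM with trametinib and 390 to 573 CPM in combination treated tumors. Cediranib replicates 1 and 3 had 331 and 322 CPM, and replicate 2 had 90.4 CPM. Of these 22 markers 9 were at 0 in all 3 trametinib tumors and 2 in all 3 control tumors, while none was at 0 throughout the cediranib or the combination group. Keratinocyte keratins, summed over 5 genes, were 581 CPM in control replicate 1, against 3.95 and 3.23 CPM in the other 2 controls. They were 0.67 to 6.26 CPM with trametinib, 2730, 5.01 and 1630 CPM with cediranib and 2830 to 4200 CPM with the combination. Hair follicle markers were highest in cediranib replicate 3 (594 CPM) and in combination treated tumors (227 to 476 CPM), against at most 34.0 CPM elsewhere. Skeletal muscle markers stood apart in control replicate 2 (16400 CPM) and trametinib replicate 2 (23100 CPM). The fibroblast list was spread widely within groups, and its genes did not move together. Its receptor gene Pdgfra was 20.2 to 39.9 CPM in the 6 tumors that received trametinib and 7.99 to 17.7 CPM in the other 6. Its collagen gene Col3a1 was 1160 to 1550 CPM with trametinib, 141 to 1120 CPM in control and 634 to 978 CPM with the combination. Lum was also higher in all trametinib tumors than in all controls, while Col1a1, Col1a2, Fbn1, Dcn and Dpt overlapped. Col1a2 was 371 to 3720 CPM in control and 230 to 406 CPM with the combination. Macrophage markers summed to 371 to 643 CPM in control, 282 to 388 CPM with trametinib, 272 to 405 CPM with cediranib and 161 to 291 CPM with the combination. The part of these shifts in the WNT results was not tested. The combination group differed from control in skin-type RNA as well as in treatment, and in bulk RNA fewer cells of a type and less RNA per cell cannot be told apart. Nothing in the sources ties tumors to separate litters or days, and p-values measure the spread between these tumors.

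**Figure D2:**
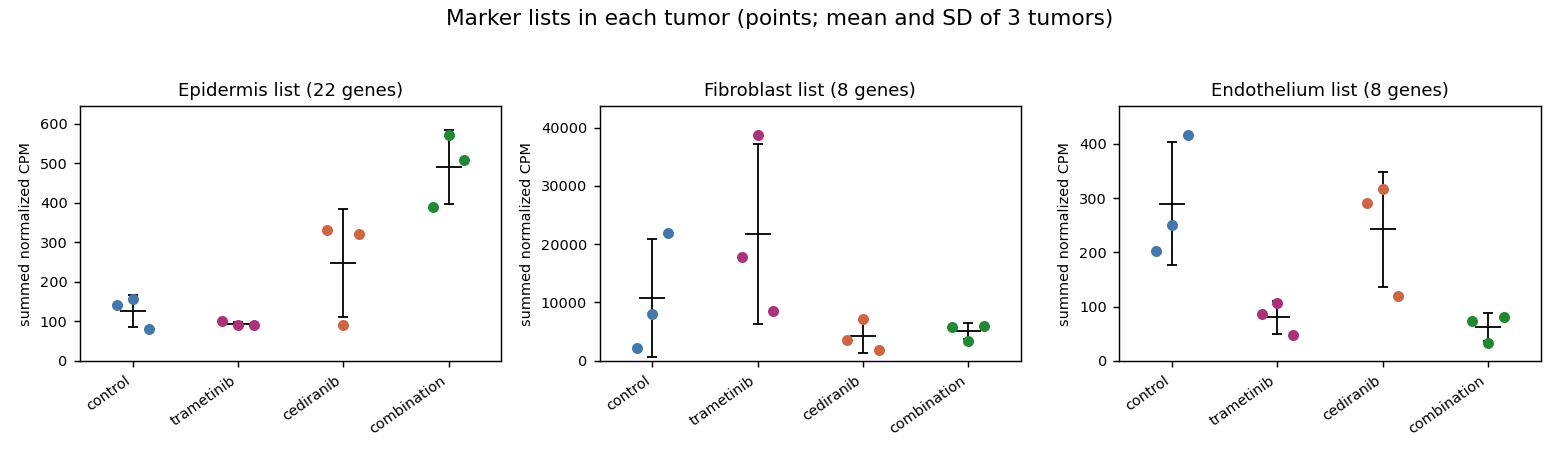
Summed normalized CPM of the epidermis (22 genes), fibroblast (8 genes) and endothelium (8 genes) lists in each tumor, with points for tumors and a line and bar for the mean and SD of 3. Epidermal markers were highest in the combination group and in 2 of 3 cediranib tumors, and endothelial markers were lowest in the trametinib and combination groups.

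After trametinib the WNT genes moved in both directions. The R-spondin receptor Lgr4, the ligands Wnt10b and Wnt10a, the receptor Fzd2 and the inhibitor Notum rose, and the ligand Wnt3 fell to no counts. These were 6 of the 33 tested genes (18.2%), 5 higher and 1 lower, where 2.4% of all genes tested were called at an FDR of 0.05 with a log2 fold change of 1.5 or more in either direction (edgeR quasi-likelihood test, Benjamini-Hochberg over all genes). By FDR alone 6 were higher and 2 lower, with 6.12% of all genes called. The median log2 fold change was 0.05 over the 33 genes and 0.01 over all genes, and the first is the same with Wnt3 at its bound.

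Combination treated tumors, set against the same 3 controls, had 5 of 33 called (15.2%), 4 higher and 1 lower, where 3.61% of all genes were called. Lgr4, Wnt10a, Wnt10b and the R-spondin Rspo3 rose and the inhibitor Sfrp2 fell. By FDR alone 5 were higher and 2 lower, where 9.98% of all genes passed. The median log2 fold change was 0.28 over the 33 genes and 0 over all genes. With a score of 17 epidermal genes in the model, 0 of the 33 were called in this comparison and 56 genes in all. That score ran from 3.22 to 3.76 in the combination group and from -0.03 to 1.67 in control, without overlap. Combination and epidermal content thus cannot be told apart in that fit.

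Cediranib alone changed no WNT gene by the test. Of the 33 genes 0 were called by edgeR, where 0% of all genes were called, and the smallest FDR was 0.999. At an unadjusted p under 0.05 there was 1 WNT gene, Rspo3, where 557 of the 12897 genes tested passed. DESeq2 called 0 WNT genes and 10 genes in all. Compared to trametinib alone, the combination had 2 WNT genes called, Rspo3 and Wnt3, both higher (6.06%, where 0.675% of all genes were called). Both calls were lost when any 1 of the 6 libraries was left out. In those fits 0 to 21 genes were called in all, rather than 87. Compared to cediranib alone, 3 were called, Lgr4, Wnt10b and Rspo3, all higher (9.09%, where 2.45% of all genes were called).

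When both groups with trametinib were compared with both groups without it, 6 WNT genes were called, 5 higher and 1 lower (18.2%, where 3.3% of all genes were called). Lgr4, Wnt10b, Wnt10a, Rspo3 and Notum were higher and Wnt3 lower. The Notum call (2.38, edgeR FDR 0.0411) was lost in 9 of the 12 fits with a library left out, all but those without control replicate 2 or combination replicate 1 or 2. By FDR alone 10 were higher and 2 lower, where 16.7% of all genes passed. These comparisons share samples with each other and are not independent of one another. The interaction, which asks whether cediranib acted differently on top of trametinib, gave 0 called WNT genes by edgeR, where 0% of all genes were called. At an unadjusted p under 0.05 it gave 3 of the 33 WNT genes, where 909 of the 12897 genes tested passed.

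**Figure D3:**
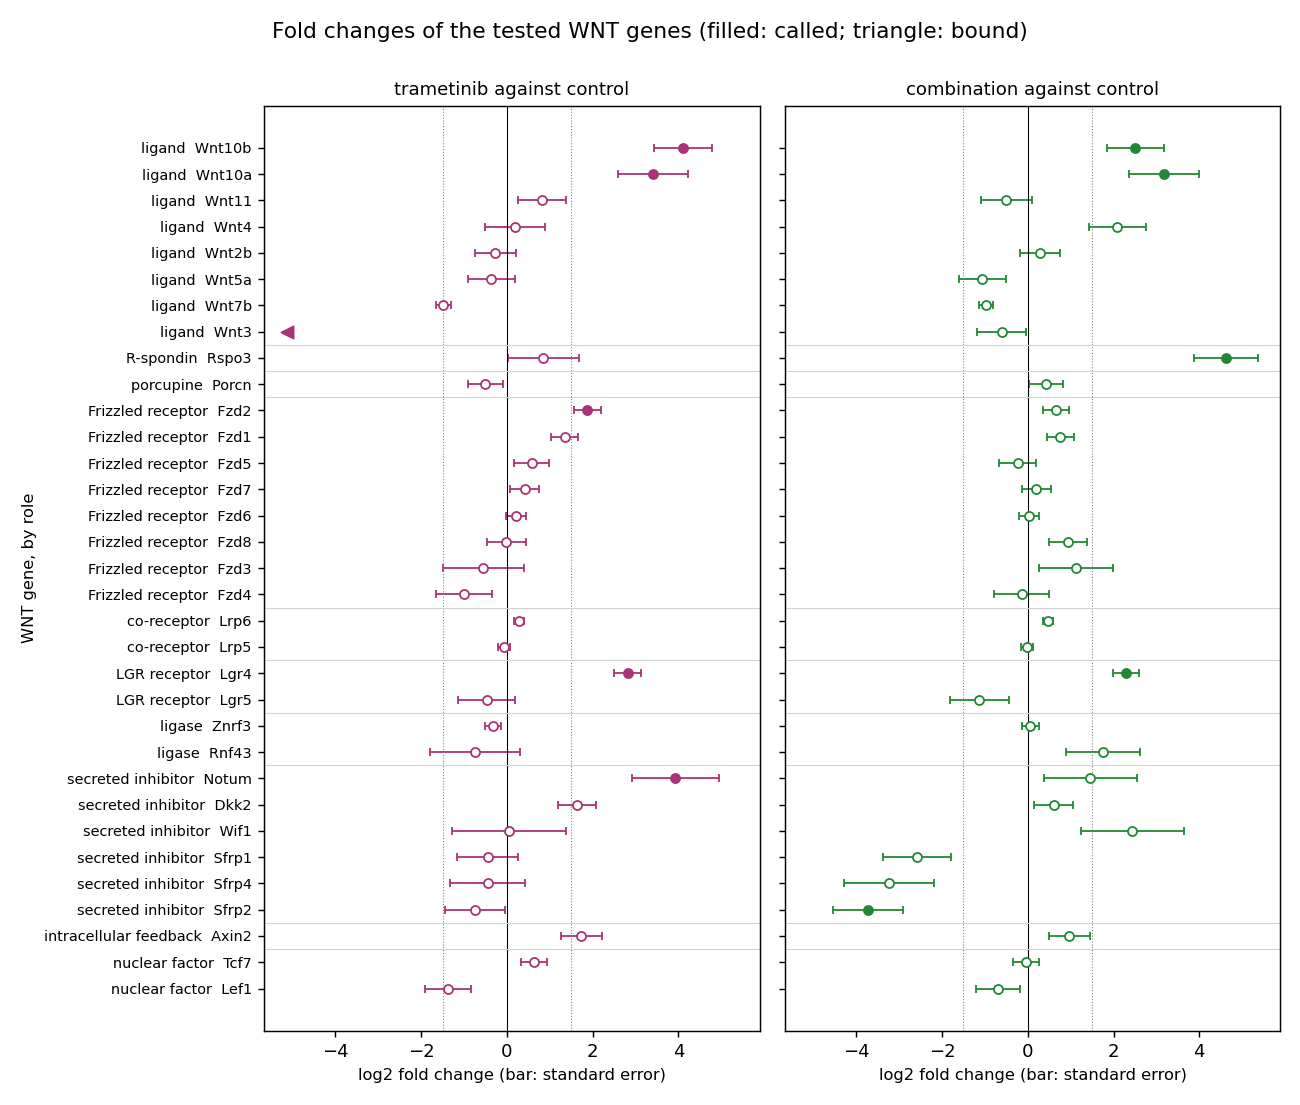
Log2 fold changes with standard errors for the 33 tested WNT genes, ordered by role, after trametinib (left) and the combination (right) against the 3 control tumors. Filled points are called, dotted lines mark 1.5 in each direction, and the triangle for Wnt3 is the bound against 3 counts. Lgr4, Wnt10a and Wnt10b are filled and to the right in both panels.

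Among the receptors, Lgr4 differed between treatments with little spread within them. It lies at chr2:109917647-110014257 (GRCm38), and its RNA was 10.2, 15.4 and 11.3 CPM in control tumors and 12.4, 6.62 and 18.6 CPM with cediranib. It was 87.4, 84.0 and 88.9 CPM with trametinib and 77.7, 47.8 and 55.2 CPM with the combination. Every tumor that received trametinib had more Lgr4 RNA than every tumor that did not. Against control the log2 fold change was 2.82 (SE 0.32, edgeR FDR 0.00041) after trametinib and 2.29 (SE 0.31, edgeR FDR 0.00179) after the combination. Against cediranib alone the combination was higher by 2.26 (SE 0.31, edgeR FDR 0.00202). Over both trametinib groups the difference was 2.54 (SE 0.22, edgeR FDR 2.82e-05). It was called under all 14 alternatives for trametinib and under 13 of 14 for the combination, the exception being the epidermal score (1.65, FDR 0.174). In cediranib replicates 1 and 3, with epidermal marker sums close to the lowest of the combination group, Lgr4 stayed at 12.4 and 18.6 CPM, and in trametinib tumors it was high with those markers low. The part of epidermal RNA in the Lgr4 difference of the combination group was not tested beyond these values. The related receptors Lgr5 and Lgr6 stayed at or below 3.23 CPM in all tumors.

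The R-spondin gene Rspo3 (chr10:29452416-29535867), whose protein is a ligand of the LGR receptors, followed the combination. Levels were 0, 1.22 and 0.202 CPM in control, 0.635, 1.05 and 0.837 CPM with trametinib and 0.0999, 0 and 0 CPM with cediranib. They were 6.97, 10.7 and 16.7 CPM in combination treated tumors. All 3 combination tumors stood above the other 9 tumors, and the gene passed the low-count filter through them. It rose by 4.62 on the log2 scale against control (SE 0.75, edgeR FDR 0.00473) and by 3.77 against trametinib (SE 0.70, edgeR FDR 0.0369). The first call was kept in all 6 fits with a library left out and lost with the epidermal score, where the difference was larger (6.60) with an FDR of 0.276. The second was lost in each of those 7 fits, with 6.43 (FDR 0.851) under the score. Against cediranib the counts were 367 and 1, a ratio of 359 with an exact 95% counting interval of 64.1 to 1.42e+04 (edgeR FDR 0.00156). Cediranib replicates 1 and 3 had 0.0999 and 0 CPM. Their epidermal marker sums were 331 and 322 CPM, against 390 to 573 CPM in the combination group. The part of epidermal RNA in the Rspo3 difference was not tested beyond these values. For the interaction Rspo3 had an FDR of 0.42 in edgeR and was called by DESeq2 (adjusted p = 0.00177). Without strand information in the sources, reads from the overlapping genes Gm20276 and Gm48159 cannot be separated from its own. The other R-spondins, Rspo1, Rspo2 and Rspo4, stayed at or below 0.404 CPM.

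Of the Frizzled receptors, Fzd2 (chr11:102604396-102608058) was the one called. It had 24.2, 24.5 and 34.5 CPM in control and 79.1, 160 and 67.6 CPM in trametinib treated tumors. It had 15.7, 27.4 and 22.9 CPM with cediranib and 45.4, 41.2 and 43.7 CPM with the combination. As for Lgr4, the 6 tumors with trametinib did not overlap the 6 without it. Fzd2 rose by 1.88 on the log2 scale after trametinib (SE 0.31, edgeR FDR 0.00387) and had a log2 fold change of 0.65 after the combination (SE 0.30, edgeR FDR 0.189). Without trametinib replicate 2 the first was 1.40 (FDR 0.00721), below the fold threshold. Over both trametinib groups the difference was 1.43 (SE 0.22, edgeR FDR 0.000951).

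Fzd1 (chr5:4753839-4758035) was 23.5, 26.1 and 51.7 CPM in control, 80.9, 122 and 55.5 CPM with trametinib, 29.4, 35.2 and 24.9 CPM with cediranib and 50.8, 54.2 and 66.5 CPM with the combination. All trametinib values lay above all control values, though control replicate 3 came close to trametinib replicate 3. The log2 fold change was 1.35 (SE 0.32, edgeR FDR 0.0287), under the fold threshold, and 0.86 (FDR 0.248) when control replicate 2 and trametinib replicate 2, both rich in muscle RNA, were left out. The other 6 tested Frizzled genes ranged from -1 (Fzd4) to 0.58 (Fzd5) after trametinib and none passed by FDR. Fzd9 and Fzd10, untested, stayed at or below 1.09 CPM.

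The co-receptors were abundant and near level. Lrp6 was 266, 253 and 245 CPM in control, 328, 336 and 263 CPM with trametinib, 285, 307 and 252 CPM with cediranib and 347, 324 and 386 CPM with the combination. The combination tumors were all higher than control, by 0.47 on the log2 scale (SE 0.12, edgeR FDR 0.036), and the FDR rose above 0.05 when any 1 of the 6 libraries was left out. Lrp5 stayed between 155 and 217 CPM in the 12 tumors.

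**Figure D4:**
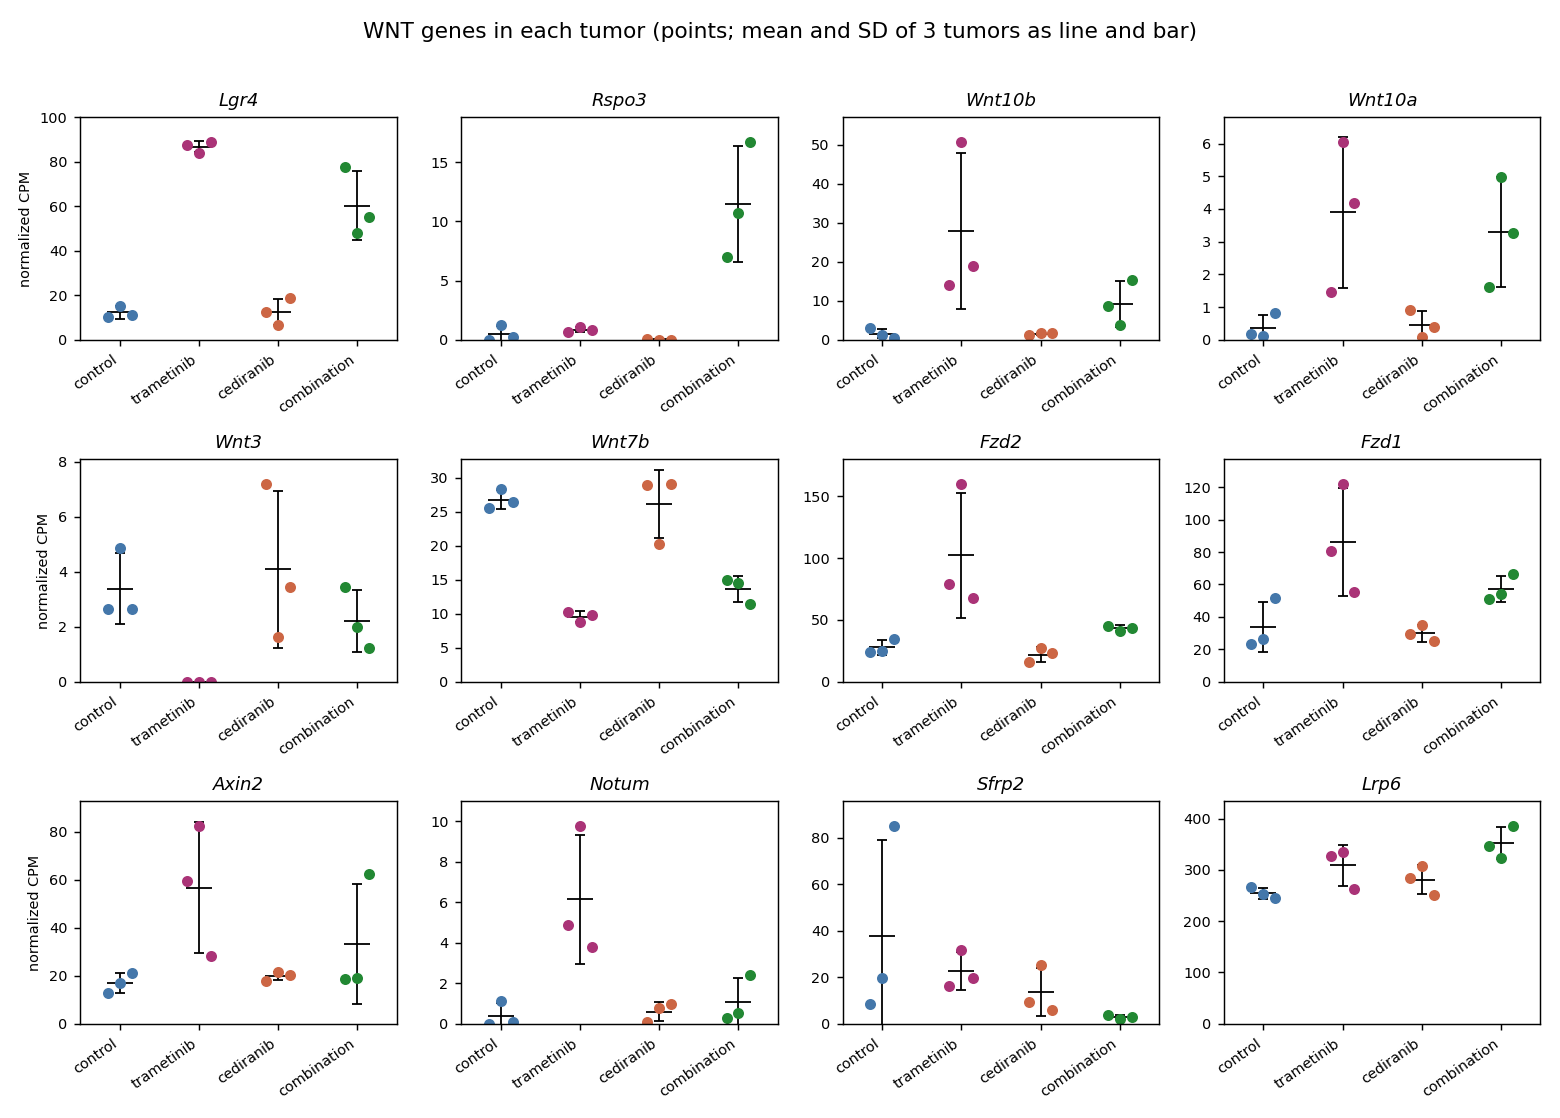
Normalized CPM of 12 WNT genes in each of the 12 tumors, with points for tumors and a line and bar for the mean and SD of 3 tumors (bars that reach below 0 are clipped). Lgr4 splits the tumors by trametinib, Rspo3 is high in the combination group and Wnt3 is at 0 with trametinib alone.

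Of the 19 ligand genes 17 had a count and 8 were tested. Wnt10b (chr15:98770712-98778150), a canonical ligand active in skin appendages and bone, was 2.90, 1.32 and 0.505 CPM in control and 14.1, 50.7 and 18.8 CPM in trametinib treated tumors. It was 1.20, 1.70 and 1.63 CPM with cediranib and 8.58, 3.72 and 15.3 CPM with the combination. The lowest tumor with trametinib exceeded the highest without it. Wnt10b rose by 4.11 on the log2 scale after trametinib (SE 0.68, edgeR FDR 0.00428), called under all 14 alternatives. After the combination it was 2.51 (SE 0.66, edgeR FDR 0.035), a call lost in 8 of 14 alternatives, with FDRs up to 0.496. Those 8 include leaving out control replicate 2 (2.39, FDR 0.11) or 3 (2.10, FDR 0.121) and combination replicate 1 (2.57, FDR 0.069) or 3 (1.92, FDR 0.118). Against cediranib the combination was higher by 2.60 (SE 0.67, edgeR FDR 0.0373), a call lost in 7 of 14 alternatives, 5 of them fits without any 1 cediranib replicate or without combination replicate 1 or 3 (2.02 to 2.69). Over both trametinib groups the difference was 3.35 (SE 0.48, edgeR FDR 0.000665) and was called in all 19 alternatives.

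The paralog Wnt10a (chr1:74791516-74803495) showed the same direction at lower counts. It was 0.170, 0.101 and 0.808 CPM in control, 1.45, 6.05 and 4.19 CPM with trametinib, 0.899, 0.0946 and 0.383 CPM with cediranib and 1.62, 4.99 and 3.25 CPM with the combination. Again the 6 tumors with trametinib lay above the 6 without it, and the gene passed the low-count filter through those 6. Its rise on the log2 scale was 3.41 after trametinib (SE 0.82, edgeR FDR 0.0301) and 3.18 after the combination (SE 0.82, edgeR FDR 0.0318). Each call was lost in 4 of the 6 fits with a library left out. Those were control replicates 1 and 2 and trametinib replicates 2 and 3 for the first (2.96 to 3.34), and control replicates 1 and 2 and combination replicates 2 and 3 for the second (2.75 to 3.18). Over both trametinib groups the difference was 3.12 (SE 0.57, edgeR FDR 0.00313), called in all 19 alternatives.

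Wnt3 (chr11:103774150-103817957), another canonical ligand, went the other way in the trametinib group alone. It was 2.64, 4.87 and 2.63 CPM in control, 7.19, 1.61 and 3.44 CPM with cediranib and 3.43, 2.00 and 1.21 CPM with the combination, and 0 in each of the 3 trametinib tumors. The control group held 105 counts, so the trametinib group was at least 35.1-fold lower against a limit of 3 counts over the group (edgeR FDR 0.00348, called under all 14 alternatives). The combination group held 69 counts and was at least 22.9-fold higher than the trametinib group (edgeR FDR 0.031). That call was lost in each fit with a library left out. For the interaction Wnt3 had an FDR of 0.428 in edgeR and was called by DESeq2 (adjusted p = 0.00432).

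Wnt7b (chr15:85535437-85582473), a ligand known from epithelium and from brain vessels, fell more modestly and with little spread. It was 25.6, 28.3 and 26.4 CPM in control and 29.0, 20.3 and 29.1 CPM with cediranib. It was 10.2, 8.73 and 9.80 CPM with trametinib and 14.9, 14.5 and 11.5 CPM with the combination. Each tumor with trametinib was below each tumor without it. On the log2 scale the difference was -1.48 after trametinib (SE 0.18, edgeR FDR 0.000621), just short of the fold threshold of 1.5, and -0.97 after the combination (SE 0.17, edgeR FDR 0.00703). Against cediranib the combination was lower by -0.94 (edgeR FDR 0.00888), and over both trametinib groups the difference was -1.21 (SE 0.12, edgeR FDR 8.28e-05). The gene AU022754 lies antisense to it, and reads of both cannot be told apart.

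The other tested ligands, Wnt2b, Wnt4, Wnt5a and Wnt11, ranged from -0.36 to 0.82 after trametinib and none passed by FDR. After the combination Wnt4, named here after its values were seen, was 1.62, 3.90 and 2.78 CPM, above the control values of 1.28, 0.405 and 0.202 CPM. Its log2 fold change was 2.09 (SE 0.66, edgeR FDR 0.0669), and DESeq2 called it (adjusted p = 0.0333). With the epidermal score it was -0.27 (FDR 0.94). The 9 untested ligands with a count stayed at or below 3.09 CPM. Summed over the 19 ligand genes, RNA was 40.0 to 52.1 CPM in control, 39.0 to 84.8 CPM with trametinib, 33.2 to 49.9 CPM with cediranib and 40.6 to 41.5 CPM with the combination, so the ligand sums overlapped between control and each group with a drug. Porcn, the acyltransferase that lipidates WNT proteins, was 9.96, 7.20 and 18.7 CPM in control, 9.53, 8.61 and 7.12 CPM with trametinib, 13.9, 6.62 and 20.2 CPM with cediranib and 11.7, 19.0 and 17.3 CPM with the combination. The 3 trametinib values lay below the 3 combination values, the other groups overlapped, and no comparison passed by FDR.

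Among the secreted inhibitors, Notum (chr11:120653788-120661175), the carboxylesterase that removes the WNT lipid, rose with trametinib. It was 0, 1.11 and 0.101 CPM in control, 4.90, 9.78 and 3.77 CPM with trametinib, 0.0999, 0.757 and 0.957 CPM with cediranib and 0.303, 0.545 and 2.41 CPM with the combination. The 3 trametinib tumors stood above the other 9, and counts of 10 or more were reached in those 3 and in 1 tumor of each other group. Notum had a log2 fold change of 3.93 after trametinib (SE 1.02, edgeR FDR 0.0421), a call lost in 5 of the 6 fits with a library left out (kept only without control replicate 2), and 1.46 after the combination (SE 1.08, edgeR FDR 0.418). Antisense genes Notumos and Myadml2os overlap it. Dkk2, an antagonist of the co-receptors and named here after its values were seen, was 7.92, 8.82 and 7.27 CPM in control and 43.6, 19.3 and 12.1 CPM in trametinib treated tumors. The log2 fold change was 1.64 (SE 0.45, edgeR FDR 0.0536), just outside the FDR threshold, and DESeq2 called it (adjusted p = 0.00477). Without trametinib replicate 1, the highest tumor, it was 0.96 (FDR 0.218).

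Sfrp2 (chr3:83766321-83774316), a decoy receptor for WNT made largely by fibroblasts, was 8.60, 19.6 and 85.0 CPM in control, 16.3, 31.8 and 19.5 CPM with trametinib, 9.29, 25.3 and 6.12 CPM with cediranib and 3.64, 2.00 and 2.88 CPM with the combination. The combination tumors were below the other 9, and control replicate 3 was far above the other 2 controls. The log2 fold change against control was -3.73 (SE 0.81, edgeR FDR 0.0152). It was -2.31 (FDR 0.0511) without control replicate 3, and the call was also lost without combination replicate 2 (-3.53) or 3 (-3.75) and with the epidermal score (-1.09, FDR 0.765). The fibroblast list followed the same order among control tumors, 2220, 7980 and 22000 CPM, and was 5790, 3460 and 5970 CPM with the combination. Its genes did not move together: Col1a2 was 371, 1190 and 3720 CPM in control and 406, 230 and 319 CPM with the combination, while Pdgfra was 15.6, 11.7 and 16.9 CPM and then 20.2, 28.9 and 24.5 CPM. The part of fibroblast content in this difference was not tested. Reads of the antisense gene Gm26771 cannot be told apart from those of Sfrp2. Sfrp1 and Sfrp4, of the same family and named here after their values were seen, had log2 fold changes of -2.58 (edgeR FDR 0.0573) and -3.23 (edgeR FDR 0.0714) after the combination and were called by DESeq2. With the epidermal score both changed sign, to 0.46 and 0.80.

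The feedback gene Axin2 (chr11:108920349-108950783), a common readout of canonical signaling, was 12.9, 16.9 and 21.1 CPM in control, 59.4, 82.5 and 28.3 CPM with trametinib, 18, 21.5 and 20.2 CPM with cediranib and 18.5, 18.9 and 62.3 CPM with the combination. All trametinib tumors exceeded the control tumors, while in the combination group 1 tumor was high and 2 were within the control range. For Axin2 the log2 fold change was 1.74 after trametinib (SE 0.47, edgeR FDR 0.0506), just outside the FDR threshold, and 0.97 after the combination (SE 0.47, edgeR FDR 0.204). DESeq2 called the first (adjusted p = 0.00202). Over both trametinib groups it was 1.24 (SE 0.33, edgeR FDR 0.0235). The antisense gene Gm11670 overlaps Axin2. Nkd1 and Nkd2, also feedback genes, stayed at or below 0.473 CPM.

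Wnt10b, Wnt10a, Fzd2, Fzd1, Axin2 and Notum were each highest in trametinib replicate 2. That library also had the highest fibroblast sum (38800 CPM) and muscle sum (23100 CPM) of the 12. Without it 3 WNT genes were called after trametinib rather than 6, and 250 genes in all rather than 310. When it and control replicate 2 were both left out, 4 WNT genes and 181 genes in all were called. Lgr4, in contrast, was 84.0 CPM in trametinib replicate 2, the lowest of its group. The part of fibroblast and muscle RNA in these levels was not tested.

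The ligase Znrf3 was 26.1, 16.3 and 23.3 CPM in control, 16.4, 16.1 and 20.1 CPM with trametinib, 27.9, 21.6 and 23.6 CPM with cediranib and 22.1, 20.2 and 26.1 CPM with the combination. Control overlapped each drug group, while trametinib tumors lay below cediranib and combination treated tumors, by little and in no comparison past the FDR. The second ligase, Rnf43, stayed at or below 1.49 CPM. Of the nuclear factors, Tcf7 was 11.8, 12.9 and 10.0 CPM in control, 12.9, 28.3 and 12.6 CPM with trametinib, 13.0, 11.0 and 12.5 CPM with cediranib and 8.89, 9.35 and 15.3 CPM with the combination, and its relative Lef1 stayed at or below 7.78 CPM. Neither passed by FDR in any of the 7 comparisons.

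Other genes of the pathway were taken from a list of 52, covering β-catenin, its destruction complex, TCF factors and surface proteins, of which 45 were tested. After trametinib 3 of the 45 were called higher and 0 lower (6.67%, where 2.4% of all genes were called). After the combination 3 were called higher and 1 lower (8.89%, where 3.61% of all genes were called). By sign alone 23 of the 45 were higher after trametinib and 28 after the combination. Tcf7l1, a TCF factor that often represses targets, was 37.1, 19.4 and 20.2 CPM in control, 81.2, 69.2 and 108 CPM with trametinib, 31.8, 25.1 and 20.1 CPM with cediranib and 58.4, 89.2 and 114 CPM with the combination. Its log2 fold change was 1.75 after trametinib (SE 0.31, edgeR FDR 0.00568) and 1.77 after the combination (SE 0.31, edgeR FDR 0.00645). Tcf7l2, the main TCF factor of many tissues, was 43.9, 38.3 and 38.3 CPM in control and 141, 189 and 105 CPM in trametinib treated tumors. It was 35.6, 43.3 and 34.6 CPM with cediranib and 90.0, 82.5 and 123 CPM with the combination. Both genes split the tumors by trametinib without overlap. For Tcf7l2 the log2 fold change was 1.85 (SE 0.21, edgeR FDR 0.000482) and 1.29 (SE 0.21, edgeR FDR 0.00469), the second under the fold threshold.

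Gpc4, a heparan sulfate proteoglycan that can carry WNT at the cell surface, was 8.01, 12.5 and 18.1 CPM in control, 42.7, 56.9 and 40.1 CPM with trametinib, 9.29, 14.8 and 8.61 CPM with cediranib and 28.6, 46.8 and 44.6 CPM with the combination. Its levels also separated the tumors by trametinib. The log2 fold change was 1.86 after trametinib (SE 0.31, edgeR FDR 0.00438) and 1.64 after the combination (SE 0.31, edgeR FDR 0.00868), the latter 1.38 without control replicate 1. Without both muscle-rich libraries the former was 1.67 (FDR 0.0565). In the combination group Sostdc1, a secreted WNT and BMP antagonist of skin appendages, rose from at most 0.0852 CPM in control to 1.31, 3.99 and 7.89 CPM (edgeR FDR 0.0189), a call lost without control replicate 2 (FDR 0.0696), control replicate 3 (FDR 0.0779) or combination replicate 3 (FDR 0.0535). With the epidermal score its FDR was 0.731. The gene passed the low-count filter through the combination tumors. Sostdc1 was also 1.20 and 3.35 CPM in cediranib replicates 1 and 3, the cediranib tumors with high epidermal markers. The part of epidermal RNA in its difference was not tested beyond these values. The receptor kinase Ror2 fell by 1.84 on the log2 scale (SE 0.53, edgeR FDR 0.0467), a call lost in 10 of 14 alternatives.

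Of 29 WNT target genes listed, 27 were found and 15 tested. After trametinib 1 was called higher and 1 lower (13.3%, where 2.4% of all genes were called), and after the combination 2 were called higher and 1 lower (20%, where 3.61% were). By sign alone 6 of the 15 were higher after trametinib and 4 after the combination, with median log2 fold changes of -0.55 and -0.36. Ccnd1, the D-type cyclin that drives entry to S phase and is also a target of MAPK signaling, was 89.5, 114 and 93.5 CPM in control, 22.1, 22.1 and 16.4 CPM with trametinib, 123, 94.8 and 118 CPM with cediranib and 32.9, 29.7 and 35.2 CPM with the combination. It fell by 2.29 (SE 0.16, edgeR FDR 1.83e-05) and by 1.6 (SE 0.16, edgeR FDR 0.00037) on the log2 scale after trametinib and the combination, and by 1.49 without control replicate 2 in the latter comparison, under the fold threshold. Dlx3, a homeobox gene of epidermis and hair, rose by 3.46 (SE 0.52, edgeR FDR 0.00248) and by 3.60 (SE 0.52, edgeR FDR 0.00265). Its means were 2.72 CPM in control, 30.3 CPM with trametinib, 5.30 CPM with cediranib and 33.3 CPM with the combination, while the epidermal markers were low in the trametinib group. With the epidermal score in the model the combination calls of Tcf7l1 (1.34, FDR 0.244) and Dlx3 (2.11, FDR 0.182) were lost. The part of epidermal RNA in the differences of Tcf7l1 and Dlx3 was not tested beyond these values. Msx2, a related homeobox gene, was higher after the combination (log2 fold change 4.36, SE 1.15, edgeR FDR 0.0349), a call lost in all 6 fits with a library left out and with the epidermal score (1.10, FDR 0.924). The gene passed the low-count filter through the combination tumors (3.84, 2.00 and 4.55 CPM). It was at most 0.272 CPM in control and trametinib tumors and 2.30 CPM in cediranib replicate 3.

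**Figure D5:**
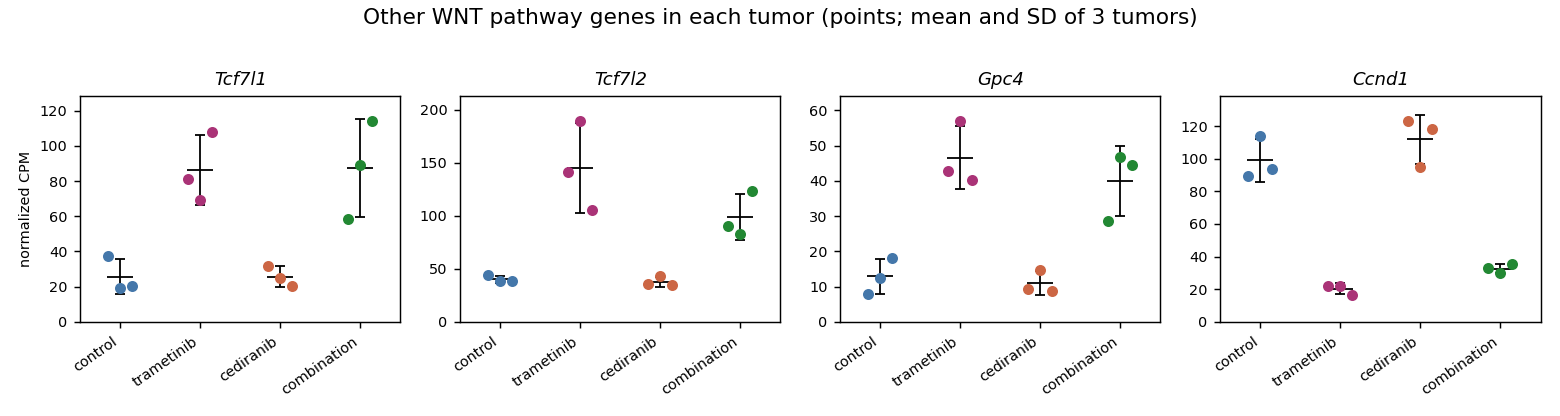
Normalized CPM of Tcf7l1, Tcf7l2, Gpc4 and Ccnd1 in each of the 12 tumors, with points for tumors and a line and bar for the mean and SD of 3 tumors. The first 3 genes are higher and Ccnd1 is lower in every tumor that received trametinib than in every tumor that did not.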

How the data were processed

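RNA sequencing of 12 SVR tumors, 3 per treatment, was analysed. The authors deposited raw counts per gene, made per the labels with bcl2fastq 1.8.4, STAR 2.7.1a and featureCounts 1.6.0 on GRCm38. For the strand and multimapping settings of the counting, the value was not given in the sources used here. All count columns were assigned from titles and treatment labels. Counts were scaled with TMM and tested with the quasi-likelihood test of edgeR 4.0.16 in R 4.3.3, all 12 libraries in 1 fit, after filterByExpr (minimum count 10, minimum total 15). Calls needed an FDR of 0.05, adjusted by Benjamini-Hochberg over every tested gene, and a log2 fold change of 1.5 or more in either direction, as in the study. Standard errors (SE) are the size of the log2 fold change over the root of the F statistic. The biological coefficient of variation was 27.2%. The procedure was tested on simulated data. Alternatives included DESeq2 1.42.0, other scalings, no filter, a replicate block, an epidermal score and leaving out each library. The members and lists were chosen with earlier results of these data known. Genes named singly were the 4 leading genes, all called members, the highest member of each role and called pathway genes. PCR copies were not marked by molecular identifiers, so reads are not independent and intervals cover counting error only. Coordinates are those of the deposited table.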

Additional observations from a re-analysis of the deposited data

How the results depend on the processing

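Over 71 results of single genes and 1092 alternatives, 951 kept their direction and side of the threshold, 97 lost a call, 40 gained one and 4 changed sign. All 4 came with the epidermal score: Sfrp1 (0.46), Sfrp4 (0.80) and Wnt4 (-0.27) in combination against control, and Sfrp2 in combination against trametinib (0.41, from -2.98). The number of WNT genes called for combination against control was 5, against 8 with DESeq2, 11 without the low-count filter, 0 with the epidermal score and 3 without the muscle-rich libraries, an alternative chosen after seeing the data. Over all genes these fits called 466, 611, 1129, 56 and 261. For combination against trametinib the number of WNT genes was 2, against 4, 10, 0 and 0 in the same order and 5 with only those groups in the fit. Over all genes these were 87, 347, 773, 0, 7 and 274. Without the filter the WNT counts were 2 for cediranib against control, 7 for combination against cediranib and 4 for the interaction, for which DESeq2 gave 2. Over all genes these were 324, 637, 261 and 28. FDR alone gave 12 WNT genes for both trametinib groups, with 2158 genes in all. With 1 library left out the WNT counts ran from 3 to 8 for trametinib against control, 3 being without trametinib replicate 2. Over all genes those fits called 233 to 289. For combination against control the WNT counts ran from 2 to 8. They were 8 without control replicate 1 (575 genes in all), 3 without control replicate 2 or 3 or combination replicate 2 (267, 237 and 261), and 2 without combination replicate 3 (338). For combination against trametinib the WNT counts were 0 in all 6, with 0 to 21 genes called in all. Without the filter, all genes called rose from 310 to 687 for trametinib, from 466 to 1129 for the combination and from 0 to 324 for cediranib, each against control. Scaling by library totals alone moved the median of all genes to 0.13 for combination against control. Replicate numbers did not pair the tumors: over 18 pairs with the same number the correlation of deviations ran from -0.22 to 0.36, with 3 over 0.1, and 4 of 12 libraries correlated best with their own number. The replicate block gave 6 WNT calls for trametinib, 4 for the combination and 0 for cediranib against control, 2 against each single drug for the combination, 6 for both trametinib groups and 0 for the interaction. Over all genes the block gave 301, 446 and 0 against control. For the combination it gave 57 against trametinib and 277 against cediranib, and it gave 412 for both trametinib groups and 0 for the interaction. Depth limits the low genes: Rspo3, Wnt3, Wnt10a and Notum rest on few counts per library.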

Other observations

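Some WNT genes too low to be tested were high in a single tumor. Frzb, a secreted inhibitor related to the SFRPs, was 7.98 CPM in combination replicate 3 and at or below 1.18 CPM in the other 11 tumors. Wnt16 was 3.09 CPM in combination replicate 2 and at most 1.62 CPM elsewhere, and Wnt5b was 2.50 CPM in cediranib replicate 1 and at most 1.62 CPM elsewhere. Combination replicate 3 was also the tumor with the highest Rspo3 (16.7 CPM) and, within its group, the highest Axin2 (62.3 CPM), Dkk2 (19.0 CPM) and Notum (2.41 CPM). Wif1, an inhibitor that binds WNT directly, was 2.47, 0 and 0 CPM in control tumors, 6.59, 0.0946 and 6.12 CPM with cediranib and 3.43, 2.36 and 8.45 CPM with the combination. In trametinib tumors it was 0.999, 1.05 and 0.670 CPM. Unlike the 3 genes above, Wif1 was tested, and it passed by FDR in no comparison. Its log2 fold change against control was 2.44 after the combination (edgeR FDR 0.219) and 2.28 after cediranib (edgeR FDR 0.999). The combination tumor with 2.36 CPM had the highest epidermal marker sum of the 12 (573 CPM). The control tumor with 2.47 CPM had a sum of 142 CPM. Its keratinocyte keratins were 581 CPM, against 3.95 and 3.23 CPM in the other 2 controls. In the cediranib tumors those keratins were 2730, 5.01 and 1630 CPM. The part of epidermal RNA in the Wif1 level was not tested.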
